A study of Mus musculus with 4 samples.

Results

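Hyaluronan is a long unbranched sugar polymer that fills the matrix around chondrocytes and carries the large proteoglycans of cartilage. It is spun out through the plasma membrane by the synthases Has1, Has2 and Has3 and cut by hyaluronidases such as Hyal1, the lysosomal enzyme, and Hyal2, which sits at the cell surface. Cells hold it through the receptor Cd44. In the matrix, versican (Vcan) binds it through its link domain, and Tnfaip6 (also called TSG-6), first found as a gene induced by TNF in fibroblasts, transfers heavy chains of the inter-alpha-trypsin inhibitor family onto it. These 8 genes were followed here across genotype and TNF treatment in cultured mouse chondrocytes.

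The members were the probes whose transcript accession belongs to one of the 8 genes in RefSeq. All 8 genes had at least 1 such probe, giving 15 of the 55619 probes on the array and 8 of the 37042 genes or unnamed transcripts that these probes represent. The primary chondrocytes came from 6-day-old C57BL/6J mice of 2 genotypes. Control mice were Rela fl/fl, and their littermates labelled cKO were Prrx1-Cre;Rela fl/fl, so both carried the floxed Rela allele. In genotype they differed by the Cre, driven by the Prrx1 promoter of limb mesenchyme. Each was cultured for 3 days with 10 ng/mL TNF or without it. Each of the 4 combinations was hybridised to 1 one-colour array, so no group had a replicate and no p-value was computed. How many mice contributed to each culture is not given in the sources used here.

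Signals below are the intensity of each spot, in the arbitrary units of the scanner software that the authors deposited. Differences between arrays are on the log2 scale after each array was set to its own 75th percentile (615, 618, 634 and 590 units, in the order control without TNF, control with TNF, cKO without TNF and cKO with TNF, which is kept throughout), so that 1 stands for 2-fold. A probe counts where the software called it well above background, which it did for 50.9% to 58.1% of probes per array. Where only the brighter array passed, the dimmer was set to the lower edge of the signals that passed on its array or to its own signal, whichever was higher, and the difference is given as "at least". As an error, 2 times the standard deviation (2 SD) of the difference between arrays was taken from probes spotted 10 times on each array: 0.49 for mean log2 signals under -2, 0.23 between -2 and 0, and 0.12 at 0 and over. This error covers single spots on the array and leaves out any spread between cultures, animals, labelling reactions or hybridisations.

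Several measurements bear on every comparison of genotypes. The Rela probe, whose place relative to the floxed exons was not determined, read 17380, 21472, 21528 and 23707 units, and was therefore not lower on the cKO-labelled arrays (log2 difference 0.26 without TNF and 0.21 with TNF). The TNF response was smaller on those arrays for the 5 NF-kB target genes used as a check: Ccl2, a monocyte chemokine, differed by 5.02 with TNF in control cells and by 3.17 on the cKO-labelled arrays, and Tnfaip3, an inhibitor of NF-kB, by 1.78 and 0.51. The Xist probe with the highest mean was well above background on both control arrays and neither cKO array. Its genotype difference was -4.32 or below without TNF. The Y-linked genes Ddx3y and Eif2s3y were 2.81-fold and 3.51-fold higher on the cKO-labelled array without TNF. They were also well above background on the control arrays (799 and 801 units for Ddx3y, 1090 and 1135 units for Eif2s3y). The control arrays thus carried both Xist and Y-linked signal, and the share of each sex cannot be told apart from genotype. All 8 chondrocyte markers and all 6 fibroblast-like markers were well above background on the 4 arrays. The summed signal of the chondrocyte markers, with 1 standing for the 75th percentile of an array, ran from 1470 to 1529 on the control arrays and from 1248 to 1277 on the cKO-labelled arrays. That of the fibroblast-like markers ran from 639 to 652 and from 570 to 588. Of 4 endothelial markers, Kdr (10987 to 12107 units) and Pecam1 (88.8 to 129 units) were well above background on all 4 arrays, and Cdh5 and Tek were not on any. Patches of neighbouring spots that were brighter on 1 array than on the other 3 held 10.7%, 7.17%, 9.46% and 1.04% of the spots of the 4 arrays. Of the 15 member probes, 10 were well above background on all 4 arrays, 1 on 2 and 4 on 1. A total of 3 had a spot in such a patch, 1 each for Has1, Tnfaip6 and Vcan, and their values are given with that limit.

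Promoter sequences are shown for the members past 2-fold between genotypes with TNF (Cd44 and Vcan) and for Tnfaip6, named for its induction by TNF. That of Hyal2 is shown because it held an NF-kB match, so it was picked for that match. RefSeq promoters of GRCm38.p6 were at hand for 6 of the 8 genes (not for Has2 or Has3), and the 250 bases before the start site are printed 5′ to 3′. Capitals mark the AP-1 motif TGANTCA in Tnfaip6 and the match to the NF-kB consensus in Hyal2, both of which read as a match on either strand.
Cd44 promoter, chr2:102901666-102901915, minus strand: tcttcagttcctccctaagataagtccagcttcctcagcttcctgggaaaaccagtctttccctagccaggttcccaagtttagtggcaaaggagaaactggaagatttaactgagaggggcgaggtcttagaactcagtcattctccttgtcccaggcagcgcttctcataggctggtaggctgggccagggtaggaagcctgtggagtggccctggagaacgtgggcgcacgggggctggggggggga
Vcan promoter, chr13:89742513-89742762, minus strand: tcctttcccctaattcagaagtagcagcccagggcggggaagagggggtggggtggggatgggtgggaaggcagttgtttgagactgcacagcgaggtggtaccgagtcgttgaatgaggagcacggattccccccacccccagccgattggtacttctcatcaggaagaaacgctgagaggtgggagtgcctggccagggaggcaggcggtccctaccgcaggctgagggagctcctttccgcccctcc
Tnfaip6 promoter, chr2:52037863-52038112, plus strand: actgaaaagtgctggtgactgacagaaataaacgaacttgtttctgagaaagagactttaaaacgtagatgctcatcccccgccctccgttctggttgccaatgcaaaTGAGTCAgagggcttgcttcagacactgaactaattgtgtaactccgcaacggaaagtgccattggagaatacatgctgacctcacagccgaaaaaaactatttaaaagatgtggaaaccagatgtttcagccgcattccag
Hyal2 promoter, chr9:107568913-107569162, plus strand: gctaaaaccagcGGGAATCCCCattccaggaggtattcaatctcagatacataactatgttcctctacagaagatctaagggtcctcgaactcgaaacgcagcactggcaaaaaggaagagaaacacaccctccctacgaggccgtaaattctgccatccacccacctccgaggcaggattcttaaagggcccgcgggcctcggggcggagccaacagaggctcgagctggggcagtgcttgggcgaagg
Of the 6 promoters, only that of Hyal2 held the NF-kB consensus, from 238 to 229 bases before the start, against 7.25% of 32851 promoters of the same length. Hyal2 was the member whose signal varied least over the 4 arrays. The AP-1 motif lay 142 to 136 bases before the start of Tnfaip6 and in no other of the 6, against 6.75% of all promoters. The CCAAT box was found in 4 of the 6 (Has1, Hyal1, Tnfaip6 and Vcan; 33.8% of all promoters) and the GC box GGGCGG in 4 (Hyal1, Hyal2, Tnfaip6 and Vcan; 32.7%), on either strand, while TATAAA (12.4%) was in none. The Cd44 window held none of these 5 motifs. These matches describe letters in short windows and say nothing of binding.

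Cd44 gave the clearest pattern. It is the main hyaluronan receptor of the cell surface and in cartilage holds the coat of hyaluronan and aggrecan around the chondrocyte. Its brightest probe read 2798 units in control cells without TNF, 3896 with TNF, 4449 on the cKO-labelled array without TNF and 8484 on that with TNF. The level was thus lowest in untreated control cells and highest on the TNF-treated array labelled cKO, and each step in this order was larger than 2 SD, the smallest being 0.15 between control with TNF and cKO without it.

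With TNF, this Cd44 probe was higher by 0.47 (1.38-fold) in control cells and by 1.04 (2.05-fold) on the cKO-labelled arrays, and the second of these was larger by 0.57. Against control, the cKO-labelled arrays were higher by 0.62 (1.54-fold) without TNF and by 1.19 (2.28-fold) with TNF. A second probe to the same transcript, reading 739, 992, 1389 and 2285 units, had the same order of arrays. Its TNF differences were 0.42 and 0.82 and its genotype differences 0.87 and 1.27. The 2 dim Cd44 probes gave partial values. One was well above background on both cKO-labelled arrays (45.1 and 43.7 units) and on neither control array (15.0 and 17.8 units), which makes it at least 0.44 higher without TNF and at least 1.01 higher with TNF. With TNF in cKO it differed by 0.06, which became -0.04 without scaling. Its genotype bounds became 0.37 without TNF and 0.41 with TNF under another background correction (normexp). The other read 24.8, 8.6, 19.2 and 34.9 units and passed only on the cKO-labelled array with TNF, at least 0.73 above cKO without TNF and at least 0.69 above control with TNF. No Cd44 spot lay in a patch.

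Cd44 is also abundant on leukocytes, so their markers were read beside it. Of 7 listed, 6 had a probe and 4 were well above background on all 4 arrays, while Ptprc (CD45), the defining one, was not on any. Cd14, a monocyte coreceptor, read 239, 350, 307 and 393 units, and like Cd44 was lowest in untreated control cells and highest in cKO with TNF. Lyz2 read 404, 152, 96.9 and 75.7 units, the first of them from a spot in a patch, and Tyrobp was also highest in untreated control cells (72.4 units). The summed signal was 4.33, 3.82, 4.07 and 3.87, most of it from Csf1r (1741 to 1877 units) and with an Adgre1 spot of cKO without TNF in a patch. The part of these cells in the Cd44 differences was not tested. Among 9660 genes that passed on every array and were clear of patches, the pattern closest to Cd44 was that of Plaur, the urokinase receptor, whose centred log2 signals differed from those of Cd44 by a root mean square of 0.046 over the 4 arrays. Plaur read 2229, 3140, 3795 and 6652 units. Ttc9 (0.067) and the pseudogene Hmga2-ps1 (0.075) came next.

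**Figure D1:**
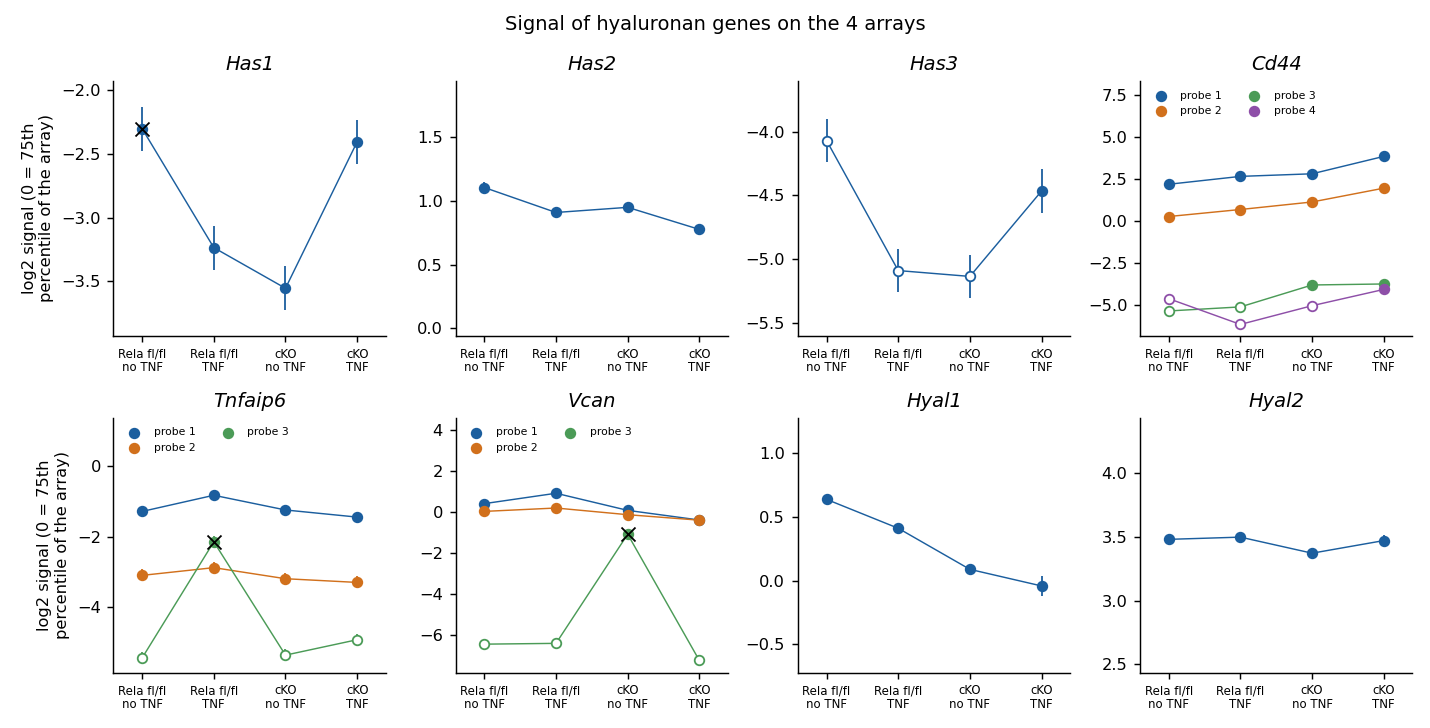
Log2 signal of each member probe (y axis, 0 is the 75th percentile of the array; the scale differs between panels) on the 4 arrays (x axis). Filled points were well above background and open points were not, bars are 1 technical SD of a single spot, and a cross marks a spot in a bright patch. Both bright Cd44 probes climb from control without TNF (2798 units for probe 1) to cKO with TNF (8484 units), while Hyal2 stays within 0.13 over the 4 arrays.

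Versican, a large proteoglycan that binds hyaluronan and is more typical of early mesenchyme than of mature cartilage, ran the other way in the 2 genotypes. Its brightest probe read 824 and 1177 units in control cells without and with TNF and 676 and 453 units on the cKO-labelled arrays. The signal was higher by 0.51 (1.42-fold) with TNF in control cells and lower by 0.47 on the cKO-labelled arrays (log2 difference -0.47), both beyond 2 SD. The second TNF difference minus the first was -0.98. The arrays labelled cKO were lower by 0.33 without TNF (-0.33) and lower by 1.31 with TNF (-1.31, 2.48-fold). The order of the arrays was control with TNF, control without it, cKO without TNF and cKO with TNF, and each step was larger than 2 SD. The summed fibroblast-like marker signal had the same order over a smaller range (652, 639, 588 and 570), but single markers differed from it. From control without TNF to cKO with TNF, Thy1 read 1572, 982, 540 and 777 units. Col1a1 read 99192, 101038, 106040 and 96104 units. The median TNF difference of the fibroblast-like markers was -0.01 in control cells and 0.04 on the cKO-labelled arrays. The part of these markers in the Vcan differences was not tested.

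A second Vcan probe, on another versican transcript, read 633, 714, 584 and 451 units, the same order at a smaller range. TNF differences on it were 0.16 and -0.27, and the genotype difference with TNF was -0.59. Its step between cKO and control without TNF (0.16) was within 2 SD. The third Vcan probe read 7.1, 7.3, 301 and 3.9 units and passed only on the cKO-labelled array without TNF, where its spot lay in a patch. It was at least 9.06-fold above control without TNF, against the sign of both brighter probes, and at least 16.04-fold above cKO with TNF.

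Tnfaip6 read highest in TNF-treated control cells on each of its 3 probes. The brightest of its 3 probes read 252 and 348 units in control cells and 268 and 216 units on the cKO-labelled arrays. With TNF the control array was higher by 0.46 (1.37-fold), and no neighbouring pair among the other 3 arrays differed beyond 2 SD. On the cKO-labelled arrays the TNF difference was -0.20, within 2 SD, and with TNF the genotype difference was -0.62. The second probe (71.9, 84.2, 69.5 and 60.1 units) differed by 0.22 and -0.10 with TNF, within its 2 SD of 0.49, and the -0.10 became 0.15 after quantile normalization. The third read 14.2, 140, 15.5 and 19.5 units, passing only in control with TNF, at least 2.11 (4.31-fold) above the untreated array. Its genotype difference with TNF was -2.77 or below. Both values rest on a spot that lay in a patch.

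**Figure D2:**
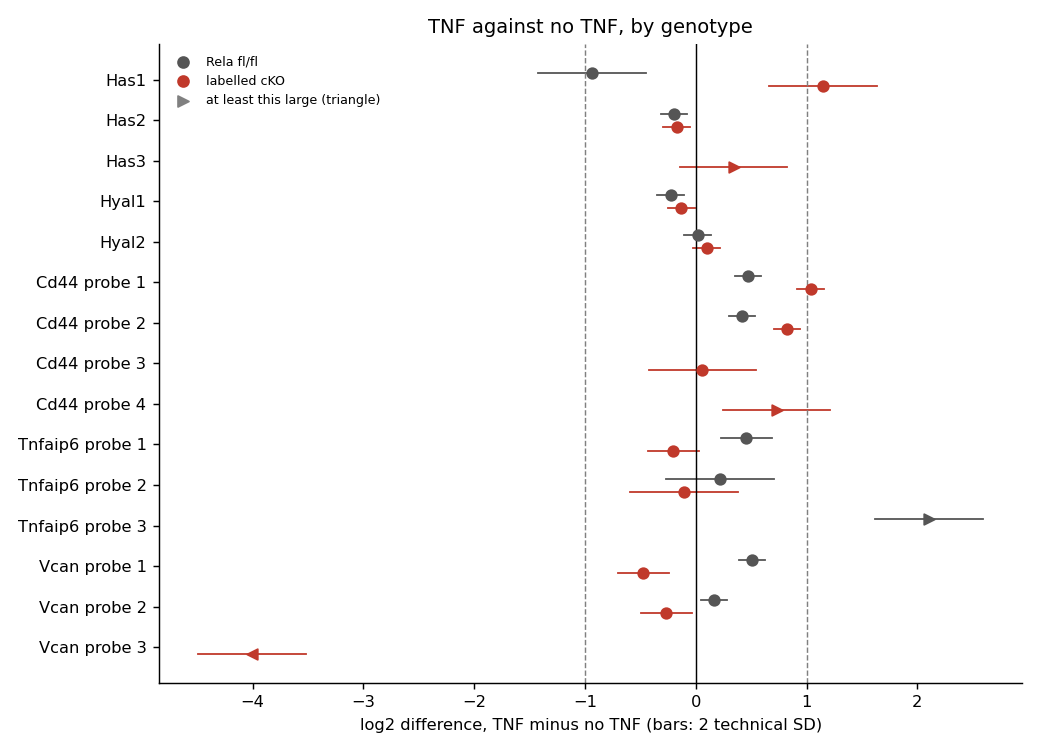
Log2 difference between TNF and no TNF (x axis) for each member probe (y axis), in control (Rela fl/fl) cells (grey) and on the cKO-labelled arrays (red). Bars are 2 technical SD, triangles are bounds, dashed lines mark 2-fold, and Vcan probes 1 and 2 lie to the right of 0 in control cells (0.51 and 0.16) and to its left on the cKO-labelled arrays (-0.47 and -0.27).

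Among the synthases, Has2, the main hyaluronan synthase of chondrocytes, was well above background everywhere and varied little. It read 1322, 1161, 1225 and 1009.9 units. TNF differences were -0.20 in control cells and -0.17 on the cKO-labelled arrays, and genotype differences were -0.16 without and -0.13 with TNF. Each was a little beyond 2 SD of single spots (0.12), and the TNF difference was nearly the same in both genotypes (0.02 apart).

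Has1, another synthase, was dim but passed on all 4 arrays, at 125, 65.6, 54.0 and 111 units. It was lower with TNF in control cells (-0.93, 1.91-fold) and higher with TNF on the cKO-labelled arrays (1.15, 2.22-fold). The arrays labelled cKO were lower without TNF (-1.25, 2.38-fold) and higher with it (0.83, 1.78-fold). The signals formed a high pair (control without TNF and cKO with TNF, 0.10 apart) and a low pair (0.32 apart), and neither pair differed beyond its 2 SD of 0.49. The spot of the array of untreated control cells lay in a patch, so the -0.93 and the -1.25 rest on it. The 1.15 and 0.83 do not, but under another background correction (normexp) the 4 differences became -0.48, 0.62, -0.69 and 0.41. The genes closest to Has1 in pattern were Rnf208 (root mean square 0.12), Sox7 (0.17) and Tfcp2l1 (0.20), of which Rnf208 and Sox7 were also dim (31.5 to 65.9 units).

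Has3, the third synthase, read 36.6, 18.1, 18.0 and 26.7 units and passed only on the cKO-labelled array with TNF. It was at least 0.34 higher there than on the cKO-labelled array without TNF, and at least 0.30 higher than in control with TNF, both within 2 SD. The highest reading, that of untreated control cells, was not called well above background, so no order of the 4 arrays can be given.

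The hyaluronidases differed from each other. Hyal1 read 957, 822, 675 and 573 units, lower in each step of that order beyond 2 SD. Its TNF differences were small (-0.23 and -0.13), and the cKO-labelled arrays were lower by 0.55 without TNF (-0.55, 1.46-fold) and by 0.45 with TNF (-0.45). Hyal2 read 6865, 6988, 6570 and 6542 units. None of its differences (0.02 and 0.10 with TNF, -0.11 and -0.03 between genotypes) was beyond 2 SD, and both TNF differences changed sign under other scalings (0.10 to -0.01 without scaling). In bulk RNA, fewer cells of a type and less RNA per cell cannot be told apart. The summed chondrocyte marker signal given above was also lower on the cKO-labelled arrays, but not evenly over its markers. Col2a1 read 364913, 375213, 369191 and 358096 units, and Matn1 55233, 45376, 15802 and 19070 units. The part of these markers in the Hyal1 difference was not tested.

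**Figure D3:**
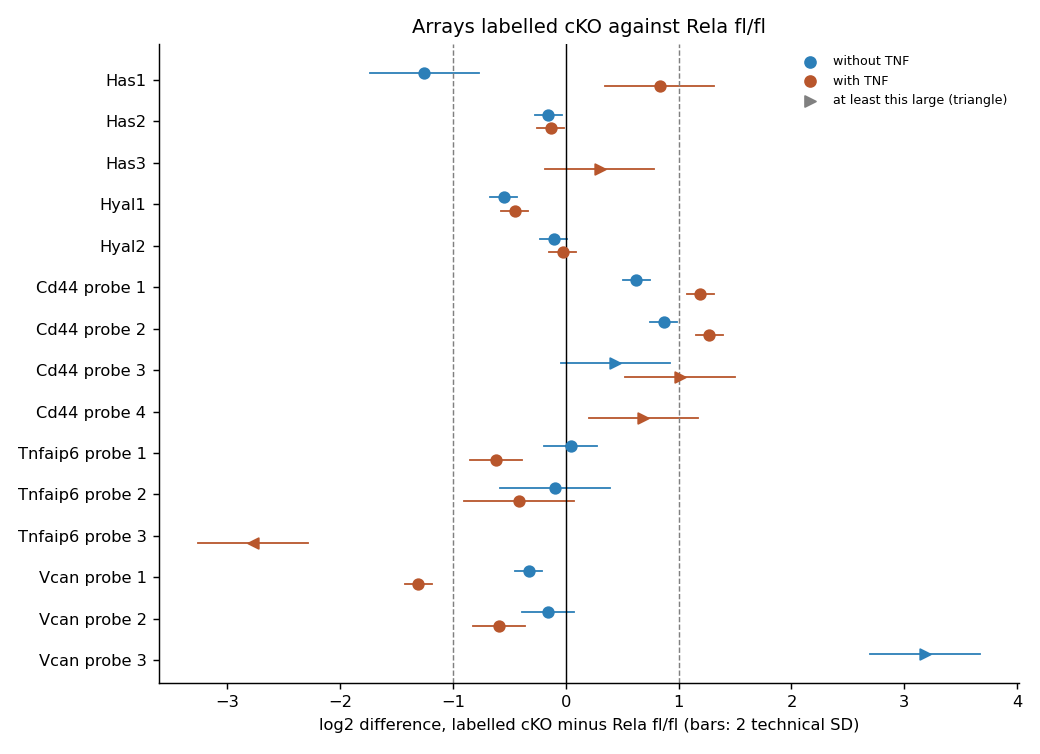
Log2 difference between the cKO-labelled arrays and control (x axis) for each member probe (y axis), without TNF (blue) and with TNF (orange). Bars are 2 technical SD, triangles are bounds and dashed lines mark 2-fold; all Cd44 values lie to the right of 0, and with TNF probe 1 of Cd44 stands at 1.19 and probe 1 of Vcan at -1.31.

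Counted by the brightest probe of each gene, with a 2-fold difference as the limit, few members were past it. With TNF in control cells, 0 of 7 members measured were higher and 0 were lower, where 2.39% and 4.26% of 23406 genes were. The members' median difference was 0.02, and that of all genes was 0.01. On the cKO-labelled arrays, 2 of 8 members were higher with TNF (Cd44 and Has1) and 0 were lower, against 0.759% and 4.26% of 24902 genes, with medians of -0.02 and 0.06. Cd44 is close to this limit: at 2.05-fold it is over it, and it is at 0.93 without scaling. Without TNF, 0 of 7 members were higher on the cKO-labelled array and 1 (Has1) was lower, against 3.53% and 4.14% of 24276 genes. With TNF, 1 of 8 was higher (Cd44) and 1 was lower (Vcan), against 1.17% and 3.07% of 24511 genes. The members' medians were -0.16 without TNF and -0.08 with it, and those of all genes 0.01 and 0.06. Counts of 1 or 2 among 7 or 8 genes are too few to set the members apart from other genes. The comparisons with and without TNF share arrays with those between genotypes, so Cd44 on the cKO-labelled array with TNF and Has1 on that without TNF each enter 2 of these counts. With spots in patches left out, the shares of all genes ranged from 0.559% to 1.39%.

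**Figure D4:**
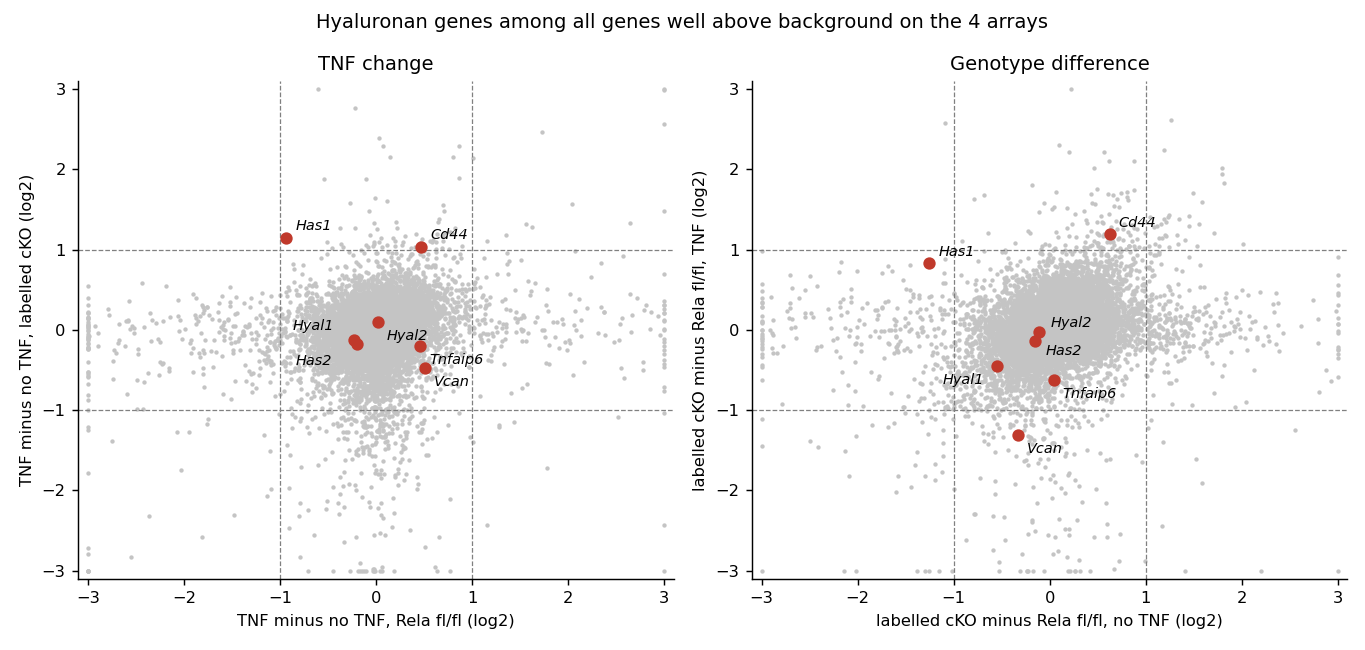
Each grey point is a gene well above background on all 4 arrays and red points are the 7 members among them, with the TNF difference in control cells against that on the cKO-labelled arrays (left) and the genotype difference without against with TNF (right), all log2. Values beyond 3 are drawn at 3, dashed lines mark 2-fold, and Cd44 (0.47 and 1.04 on the left) and Vcan (0.51 and -0.47) lie on opposite sides of 0 on the vertical axis; within each panel the axes use different arrays.

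The same arrays were read for 41 further genes of hyaluronan biology, all with a probe (Cemip2 had also been listed under its older name Tmem2). With TNF in control cells, 2 of 29 measured were higher by 2-fold (Tlr2 and Hapln2) and 1 lower (Hapln3), where 2.39% and 4.26% of all genes were, and the median was 0.03. On the cKO-labelled arrays, 1 of 30 was higher (Itih1) and 0 were lower (0.759% and 4.26% of all genes), again with a median of 0.03. Without TNF, 0 of 29 passed the limit between genotypes (3.53% and 4.14% of all genes). With TNF, 1 of 31 was higher on the cKO-labelled array (Itih1) and 1 lower (Hapln2), against 1.17% and 3.07% of all genes.

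Enzymes that make the sugar precursors stayed close to 0. All 7 were measured, 0 passed the limit in any of the 4 comparisons, and TNF differences ran from -0.19 to 0.14 in control cells and from -0.38 to 0.28 on the cKO-labelled arrays. The lowest was Gfpt2, which feeds the hexosamine pathway (2245, 1978, 2003 and 1436 units), and the highest Uap1, which makes UDP-N-acetylglucosamine (5611, 5751, 5562 and 6290 units). Of 10 turnover genes with a probe, 6 were measured and 0 passed the limit in any comparison. Cemip, a hyaluronan-degrading protein, read 90.9, 161, 122 and 123 units, higher by 0.82 with TNF in control cells and by 0.13, within 2 SD, on the cKO-labelled arrays. A second Cemip probe (38.0, 49.8, 51.4 and 53.2 units) was higher by 0.38 and 0.15 with TNF, both within 2 SD. Cemip2, a cell-surface hyaluronidase, was higher on the cKO-labelled arrays by 0.49 without TNF and by 0.41 with it.

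Of the 7 receptors 5 were measured, and Tlr2 alone passed the limit, in control cells. Tlr2, a pattern recognition receptor reported to respond to hyaluronan fragments, read 1010.5, 2082, 855 and 1011 units. With TNF it was higher by 1.02 in control cells and by 0.36 in cKO, and the genotype difference with TNF was -0.97. Unlike Cd44, it was highest in TNF-treated control cells. Among the binding and cross-linking proteins (11 of 17 measured for TNF in control cells, 1 past the limit each way), Ptx3 and the brighter probe of Prg4 were highest on that array as well. Ptx3, a pentraxin that works with Tnfaip6 and the heavy chains in cross-linking hyaluronan, read 2011, 2825, 2000 and 1608 units (0.48 and -0.21 with TNF, -0.74 between genotypes with TNF). Prg4, lubricin of the cartilage surface, read 3450, 6617, 3908 and 4365 units on its brighter probe (0.93 and 0.26 with TNF). Its dim second probe (45.7, 29.0, 24.2 and 32.4 units) went the other way in control cells, by -0.66, which is beyond 2 SD, and both probes had their spot of cKO without TNF in a patch.

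The binding and cross-linking list as a whole had 6 genes above 0 and 5 below with TNF in control cells (median 0.02), and 7 above and 5 below in cKO (median 0.01). Acan, the aggrecan core protein, read 61399, 50371, 41766 and 34676 units, differing by -0.29 and -0.16 with TNF and by -0.60 and -0.47 between genotypes, with the spot of cKO with TNF in a patch. Hapln1, the link protein that locks aggrecan to hyaluronan, differed by -0.43 and -0.16 with TNF. The calls of Hapln3 (-1.02), Hapln2 (at least 1.97) and Itih1 (1.37 with TNF on the cKO-labelled arrays) came from genes with a spot in a patch of at least 1 array. For Itih1 that array was control with TNF, which the 1.37 does not use. Hapln2 passed only in control with TNF, where its 1 spot lay in a patch, and Itih1 reached no more than 76.5 units.

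**Figure D5:**
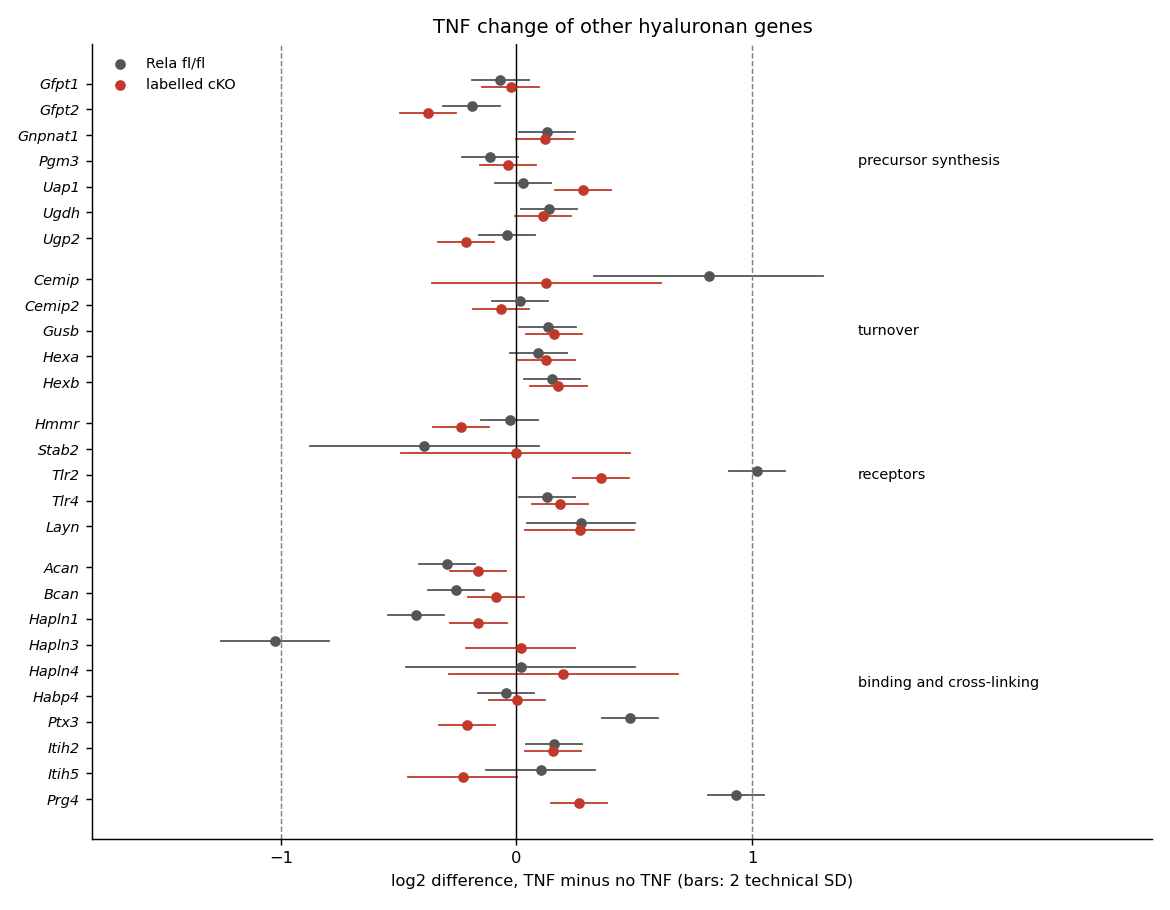
Log2 difference between TNF and no TNF (x axis) for other hyaluronan genes well above background on all 4 arrays (y axis, grouped by role), in control (Rela fl/fl) cells (grey) and on the cKO-labelled arrays (red). Bars are 2 technical SD and dashed lines mark 2-fold; Tlr2 (1.02) and Prg4 (0.93) lie farthest to the right in control cells, and Hapln3 (-1.02), which has spots in patches, farthest to the left.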

How the data were processed

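Total RNA of primary chondrocytes was labelled with Cy3 and hybridised to 4 SurePrint G3 mouse arrays, 1 per group, so the number of arrays limits the precision. The authors deposited the processed intensity of each spot, background-subtracted and detrended by Agilent Feature Extraction 10.10.1.1 (per the labels), and a table of scaled intensity values, which are that intensity times 1 factor per array (1.83, 1.77, 1.79 and 1.78; column medians 82.4, 74.2, 88.5 and 69.4), used only as an alternative.

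Spots flagged as outliers (138 to 225 per array) and control spots were left out, and 0 spots were saturated. Log2 intensity was lowered by its array's 75th percentile over 59305 transcript spots, and spots of a probe were averaged. The probe with the highest mean stood for a gene in counts. Symbols came from RefSeq of GRCm38.p6 by accession (27208 probes). A spot lay in a patch when 3 or more neighbours within 5 rows and 2 columns exceeded all of the other 3 arrays by 2-fold. This rule had been chosen on these data, and leaving patches out drops such a spot on all 4 arrays. Of 399 probes with 10 spots, the technical spread used the 273 with at least 5 spots well above background on both arrays of a comparison, by mean signal.

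Comparisons were TNF against no TNF in each genotype and cKO against control with and without TNF. The members, lists, named genes (every member probe; of the wider list those past 2-fold with TNF and the 3 largest differences per comparison, Cemip and Hapln1 being added after their values were seen; and the 3 genes most like each member past 2-fold with TNF) and alternatives were chosen with earlier results of these data known. Alternatives covered scaling, normexp background (offset 50, on the median signal, with limma 3.58.1 in R 4.3.3), filters, probe summary, limit and patches. Python 3.11.15, numpy 2.4.6 and pandas 2.3.3 were used.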

Additional observations from a re-analysis of the deposited data

Results flagged for a closer look

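For 2 members, the signal differed with TNF one way in control cells and the other way on the cKO-labelled arrays, both differences being beyond 2 SD, with 1 array per condition. Tnfaip6 also had opposite signs on its brightest probe (0.46 and -0.20), but the second was within 2 SD. The difference between these changes was not tested. For Has1 it was 2.08 on the log2 scale (lower with TNF in control cells, higher on the cKO-labelled arrays), on a dim probe with 1 spot in a bright patch. For Vcan it was -0.98 on the brightest probe and -0.43 on the second (higher with TNF in control cells, lower on the cKO-labelled arrays), with no spot of either in a patch.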

How the results depend on the processing

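Of the 390 probe differences recomputed under other scalings, backgrounds and filters, 332 moved by less than the technical spread and 58 by more, 21 of them under normexp. No difference past 2-fold changed sign. Member counts depended on the limit and the probe used. With any probe counted, higher with TNF in control cells went from 0 to 1 (Tnfaip6), lower with TNF on the cKO-labelled arrays from 0 to 1 (Vcan), higher on the cKO-labelled array without TNF from 0 to 1 (Vcan) and lower with TNF from 1 to 2. The added calls rest on the Tnfaip6 and Vcan probes with a spot in a patch. With the mean over probes, 1 member was higher (Has1) and 1 lower (Vcan) with TNF on the cKO-labelled arrays, and Vcan was no longer past 2-fold between genotypes with TNF, where Tnfaip6 was the 1 counted as lower instead. These means of Vcan and Tnfaip6 include the same probes. Higher with TNF there fell from 2 to 1 without scaling, after quantile normalization and in the authors' table (Cd44 at 0.92 to 0.93), and also to 1 under normexp and without patches (Has1 lost). The count lower on the cKO-labelled array without TNF fell from 1 to 0 under normexp and, with the Has1 probe again dropped, without patches. It rose to 2 with no filter, and lower with TNF in control cells rose from 0 to 1. At 1.5-fold, 1 member was lower with TNF in control cells (Has1), 1 higher on the cKO-labelled array without TNF (Cd44), and 2 higher and 2 lower there with TNF. At 3-fold, all counts were 0. Without scaling, the median of all genes for TNF on the cKO-labelled arrays moved from 0.06 to -0.05.

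No paired test was run, because each condition had 1 array. An additive fit over the 4 arrays was left out, since it would take any difference of TNF changes between genotypes for error. With 1 array a group, differences between cultures and hybridisations cannot be told apart from TNF or genotype, nor sex from genotype, and 5 of the 15 probes were not well above background on at least 2 arrays, so that most of their differences are bounds or have no value.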
